A study of Bos taurus with 45 samples.

Results

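Endometrium cultured alone (Endo) was compared with sections of in vivo derived conceptuses cultured alone (IVD Conc), to describe which transcripts each tissue held apart from the other on Day 16 after 12 h of culture. The comparison used the 13 Endo and 8 IVD Conc mono-culture libraries of the 45 RNA-Seq libraries analysed, and the 16084 genes listed in both count tables, out of 27270 in the endometrial and 16149 in the conceptus table. Endo explants were intercaruncular endometrium of cyclic, unbred cross-bred Angus-Holstein heifers, and IVD Conc were pieces of elongated conceptuses recovered from heifers of the same cross bred by artificial insemination. Both were kept in RPMI medium, and messenger RNA was selected by its poly(A) tail. The Endo libraries carried 13 different uterus numbers and the IVD Conc libraries 8 different conceptus-heifer numbers, so replicates stood for different animals or pregnancies, while an IVD Conc library was a piece of a conceptus and not a whole one. The names of the IVD Conc libraries also carried 5 uterus numbers, 3 of them on a pair of libraries each and all 5 shared with Endo libraries.

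The bovine conceptus elongates in the uterine lumen before it attaches, and at this stage it consists of an outer trophoblast, an inner hypoblast that spreads beneath it and a small embryonic disc. Its trophoblast secretes interferon tau, the signal for maternal recognition of pregnancy in ruminants, together with pregnancy-associated glycoproteins and trophoblast Kunitz domain proteins. The endometrium around it is a layered maternal tissue of luminal and glandular epithelium, some of it ciliated, over a stroma that holds blood vessels and immune cells. In bulk RNA, fewer cells of a type and less RNA per cell cannot be told apart.

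Total counts per library were 44.2 to 61.5 M in Endo and 65.5 to 104 M in IVD Conc, and the genes in both tables held 98.7 to 99.0% of counts in Endo and 99.8 to 99.9% in IVD Conc. Levels below are counts per 1000000 counts (CPM) over the genes in both tables, scaled for composition. For genes listed only for endometrium, CPM were taken over all counts of the endometrial table, without that scaling. Endometrial reads had been aligned with STAR and conceptus reads with HISAT2, RNA had been extracted by different methods, and the RNA integrity numbers stated in the labels were 5.2 to 9.3 for endometrium and 7.5 to 10 for conceptus tissue, so that tissue, aligner, extraction and RNA integrity cannot be told apart. For that reason the text turns on large contrasts, defined as an adjusted p of at most 0.05 by edgeR's quasi-likelihood test, at least an 8-fold difference and no overlap between the 13 and the 8 libraries. A gene with a large contrast was called tissue-restricted when its median was at least 10 CPM in 1 tissue and under 1 CPM in the other.

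Libraries were more alike within than between tissues. Pearson correlations of log2 CPM across genes were 0.906 to 0.981 between Endo libraries, 0.875 to 0.982 between IVD Conc libraries and 0.582 to 0.696 between the tissues. The lowest mean correlation with its own tissue was 0.922 for Endo replicate 1 and 0.909 for IVD Conc replicate 1. The IVD Conc libraries differed from each other in their cell type markers, replicate 1 being lowest in TKDP1, PAG2 and IFNT3, and replicate 4 highest in POU5F1 and VIM. Of 314 large contrasts among the genes of the lists and pairs and the genes named, leaving out replicate 4 moved 44 by over 1.5-fold, 42 of them away from 0, and leaving out replicate 1 moved 4. Without Endo replicate 1 it was 19, and without any other single library at most 8. Values without a library are given for the genes the text turns on.

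The tissue labels were checked against 3 markers. COL3A1, a fibrillar collagen of stroma, and DCN, the matrix proteoglycan decorin, were present in every Endo library at 483 CPM or more and were at 2.33 CPM or less in every IVD Conc library. CGA, the alpha subunit of the glycoprotein hormones, was at most 0.0484 CPM in Endo. In IVD Conc replicates 1 to 8 it measured 0.155, 58.5, 0, 0.542, 85.6, 1.64, 0.142 and 80.3 CPM, so 3 sections held it at a high level and 5 at 1.64 CPM or less, and the groups overlapped. CGA did not pass the filter on low counts. TKDP1, a trophoblast Kunitz domain protein, had no count in any Endo library and marked all 8 sections, at 450.4 CPM or more.

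Of 15137 genes tested, 11858 (78.3%) differed between Endo and IVD Conc at an adjusted p of at most 0.05, 5789 (38.2%) of them higher in Endo and 6069 (40.1%) higher in IVD Conc. The 13 and the 8 libraries did not overlap for 6277 genes (41.5%). Large contrasts numbered 2398 (15.8%). Of these, 1628 (10.8% of genes tested) were higher in Endo and 770 (5.09%) were higher in IVD Conc. The tissue-restricted genes numbered 745 (4.92%), 523 of them in Endo and 222 in IVD Conc. The median log2 fold change of Endo over IVD Conc across all genes tested was -0.04, with quartiles at -1.07 and 1.38. The sides were close to even among all differing genes, while Endo held more of the large contrasts.

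**Figure D1:**
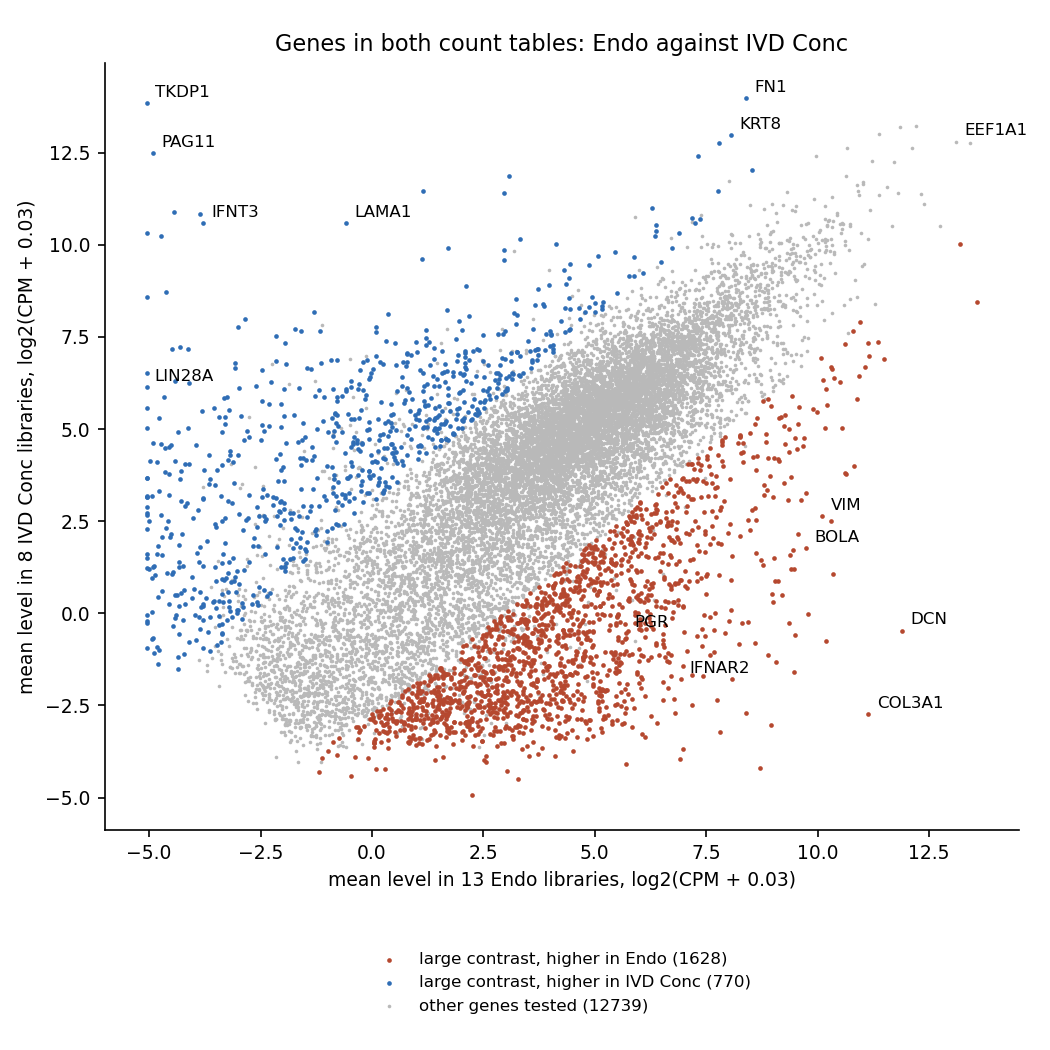
Mean level of each gene tested in the 13 Endo libraries (horizontal axis) and the 8 IVD Conc libraries (vertical axis), both as log2(CPM + 0.03), with the 1628 large contrasts higher in Endo in red, the 770 higher in IVD Conc in blue and the other genes in grey. The large contrasts lie far from the diagonal along both axes, with COL3A1 and DCN at the Endo end and TKDP1 and PAG11 at the IVD Conc end.

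The 15 largest Endo contrasts among genes with at least 50 CPM included matrix genes, endothelial receptors and chemokines. COL3A1 ranged 483 to 7475 CPM in Endo (median 1524), against 0 to 0.653 CPM in IVD Conc (median 0.0585) (log2 fold change 14.14, SE 1.1, adjusted p = 1.60e-10). MGP, a matrix protein that inhibits calcification, ranged 133 to 1005 CPM in Endo (median 403), against 0 to 0.0538 CPM in IVD Conc (median 0.0221) (log2 fold change 13.89, SE 0.667). DCN ranged 1927 to 5951 CPM in Endo (median 3895), against 0.0515 to 2.33 CPM in IVD Conc (median 0.438) (log2 fold change 12.41, SE 0.685, adjusted p = 9.10e-13). The lowest Endo library lay far above the highest IVD Conc library for each of these. The vascular members were ROBO4, an endothelial guidance receptor (211 to 1033 CPM, median 391, in Endo and 0 to 0.361 CPM, median 0.0447, in IVD Conc, log2 fold change 12.34), and S1PR1, a sphingosine 1-phosphate receptor (381 to 1491 CPM, median 570.0, in Endo and 0.0734 to 0.74 CPM, median 0.195, in IVD Conc, log2 fold change 11.17). The chemokine CCL2, which draws monocytes, ranged 52.5 to 469 CPM in Endo (median 161), against 0 to 0.37 CPM in IVD Conc (median 0.011) (log2 fold change 11.40). CXCL3, which draws neutrophils, ranged 32.3 to 575 CPM in Endo (median 80.6), against 0 to 0.243 CPM in IVD Conc (median 0.011) (log2 fold change 11.18). Neither chemokine reached 1 CPM in any IVD Conc library.

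The rest of that group had varied roles. PENK, the precursor of the enkephalins, ranged 30.3 to 1219 CPM in Endo (median 255), against 0 to 0.764 CPM in IVD Conc (median 0.0273) (log2 fold change 11.36), and its highest IVD Conc value was in replicate 4, without which the log2 fold change was 13.28. The matrix-cleaving enzymes MMP19 (medians of 429 CPM in Endo and 0.424 CPM in IVD Conc, log2 fold change 10.50) and ADAMTS4 (medians of 610.0 CPM in Endo and 0.539 CPM in IVD Conc, log2 fold change 10.12) were in the same range of contrast. SCARA5, a ferritin receptor, had medians of 127 CPM in Endo and 0.0933 CPM in IVD Conc (log2 fold change 10.32), and ADCY4, an adenylate cyclase, had medians of 75.8 CPM in Endo and 0.0392 CPM in IVD Conc (log2 fold change 10.00). HIC1, a transcriptional repressor, had medians of 222 CPM in Endo and 0.239 CPM in IVD Conc (log2 fold change 9.99). BOLA-DRA, an MHC class II chain, and GRP, a gland peptide, complete the 15 and are given with their groups.

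The largest IVD Conc contrasts were led by trophoblast products. TKDP1 had no count in the 13 Endo libraries and 450.4 to 33379 CPM in IVD Conc (median 13256), at least 261372-fold higher in IVD Conc when Endo is set to the floor of 3 counts per library. TKDP4 likewise had no Endo count and 2.72 to 6874 CPM in IVD Conc (median 452), at least 22819-fold higher. PAG11, a pregnancy-associated glycoprotein, had 1 Endo library with a count, at 0.0399 CPM, and 417 to 12918 CPM in IVD Conc (median 3554). These 3 genes separated the tissues in every library, although sections differed widely in each of them. PAG and TKDP genes are families of close copies, and reads shared between copies make the level of any single member uncertain.

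PINLYP ranged 0 to 0.0484 CPM in Endo (median 0), against 67.4 to 3045 CPM in IVD Conc (median 377) (log2 fold change -17.01, SE 0.988, adjusted p = 1.93e-12), and CALML5, a calmodulin-like protein of epidermis in humans, ranged 0 to 0.044 CPM in Endo (median 0), against 8.29 to 1319.9 CPM in IVD Conc (median 264) (log2 fold change -15.10). FETUB, a fetuin of the cystatin family, ranged 0 to 0.109 CPM in Endo (median 0.0361), against 709 to 6451 CPM in IVD Conc (median 1083) (log2 fold change -15.38, SE 0.666). C9H6orf58 ranged 0 to 0.0722 CPM in Endo (median 0), against 2.83 to 362 CPM in IVD Conc (median 75) (log2 fold change -13.12). The remaining genes of the leading 15, which are PAG2, PAG8, IFNT3, HAND1, GATA4, LAMA1, LIN28A and SALL4, fall in the groups described below.

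**Figure D2:**
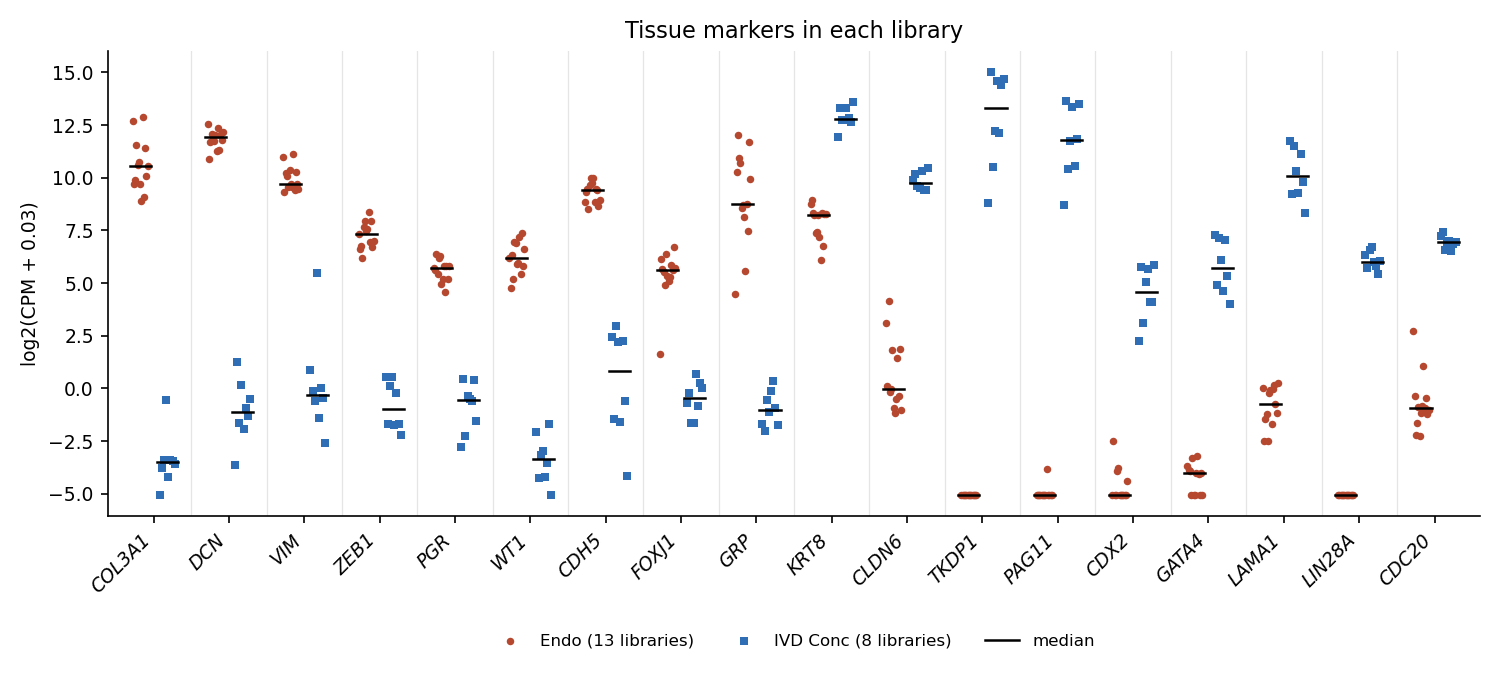
Level of 18 tissue markers in each library, as log2(CPM + 0.03), with Endo as red circles on the left of each gene, IVD Conc as blue squares on the right and black bars at the group medians. The 9 genes from COL3A1 to GRP lie higher in Endo, the 9 from KRT8 to CDC20 lie higher in IVD Conc, and the 2 groups do not overlap for any of the 18.

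Genes were grouped in 27 lists by cell type or role. Over all lists 855 genes were named, of which 652 were tested, 146 were listed only for endometrium, 36 matched neither table, and the others were listed only for conceptus tissue or fell below the filter. A list's count is to be read against the 10.8% and 5.09% of all genes with a large contrast in Endo and in IVD Conc, and its median against -0.04. Counts by the adjusted p are to be read against 38.2% of all genes higher in Endo and 40.1% higher in IVD Conc, or 78.3% in either direction.

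**Figure D3:**
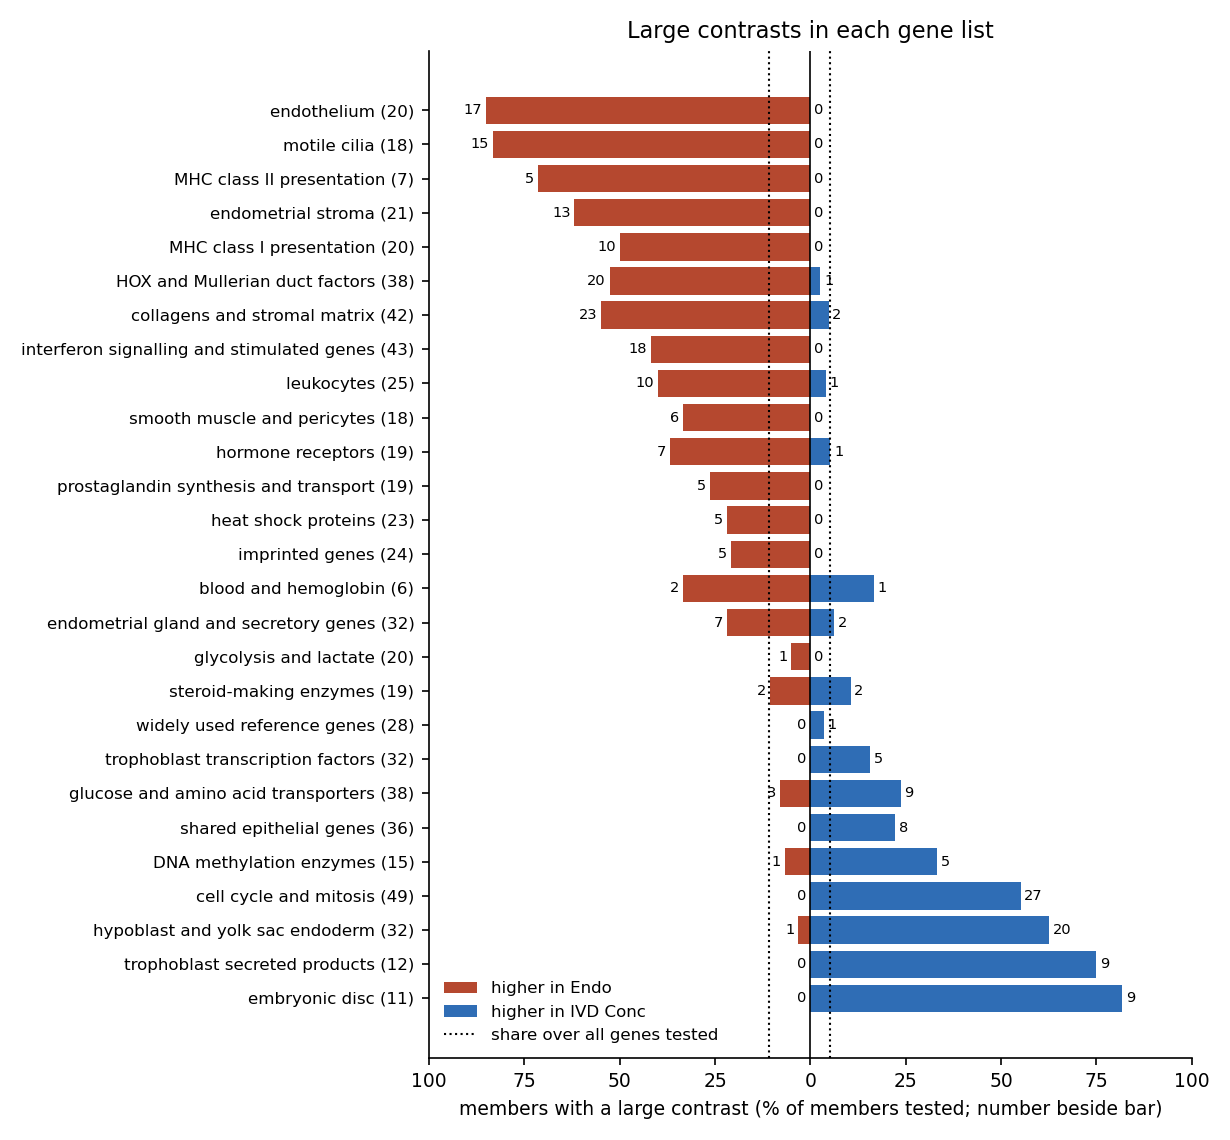
Share of the members tested of each of the 27 gene lists that had a large contrast, with bars to the left (red) for genes higher in Endo, bars to the right (blue) for genes higher in IVD Conc, the number of genes beside each bar and the number tested in brackets. Dotted lines mark 10.8% and 5.09%, the shares over all genes tested. Endothelium (17 of 20) and motile cilia (15 of 18) reach farthest to the left, and embryonic disc (9 of 11) and trophoblast secreted products (9 of 12) farthest to the right.

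Stromal matrix was far more abundant in Endo for most but not all matrix genes. Of 42 collagens and matrix genes tested, 23 had a large contrast in Endo and 2 in IVD Conc, 12 were restricted to Endo, and the median log2 fold change was 3.90. Beside COL3A1, the large contrasts were COL6A1 (medians of 878 CPM in Endo and 1.88 CPM in IVD Conc, log2 fold change 9.29), COL6A3, COL5A2, COL15A1 and COL1A2, with OGN, a small proteoglycan, and LOX, which crosslinks collagen. COL1A1, the other main fibrillar collagen, ranged 317 to 4022 CPM in Endo (median 727), against 5.23 to 123 CPM in IVD Conc (median 18.6) (log2 fold change 4.56), so its transcripts were not restricted to Endo. The basement membrane collagens went the other way without a large contrast, COL4A1 at medians of 1642 CPM in Endo and 2864 CPM in IVD Conc (log2 fold change -1.23) and COL4A2 at medians of 667 CPM in Endo and 1443 CPM in IVD Conc (log2 fold change -1.53). SPARC, which binds collagen, had medians of 664 CPM in Endo and 1274 CPM in IVD Conc and did not pass the test (log2 fold change -0.41, adjusted p = 0.448).

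The 2 matrix genes with a large contrast in IVD Conc were fibronectin and versican. FN1 ranged 119.7 to 1141 CPM in Endo (median 222), against 3372 to 29321 CPM in IVD Conc (median 13312) (log2 fold change -5.60, SE 0.492, adjusted p = 1.10e-09), and VCAN ranged 17.3 to 71.6 CPM in Endo (median 29.2), against 95.1 to 699 CPM in IVD Conc (median 265) (log2 fold change -3.11, SE 0.35). Both groups were apart in every library. LAMA1, the laminin chain of embryonic basement membrane, ranged 0.145 to 1.18 CPM in Endo (median 0.568), against 319 to 3383 CPM in IVD Conc (median 1094) (log2 fold change -11.23, SE 0.577, adjusted p = 3.27e-13). The matrix list summed to 12533 to 48993 CPM in Endo and 6889 to 47093 CPM in IVD Conc, ranges that overlap although single genes lay far apart. Measured as percentile ranks within each library, neither FN1 nor VCAN passed a limit of 30 percentile points. FN1 had a median percentile of 95.1 in Endo and 99.99 in IVD Conc, and VCAN of 67.0 in Endo and 96.3 in IVD Conc. At that Endo percentile, FN1 could not have risen by 30 points.

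Most markers of endometrial stroma had a large contrast in Endo. Of 21 tested, 13 had a large contrast in Endo and 0 in IVD Conc, 10 were restricted, and the median log2 fold change was 4.81. VIM, the mesenchymal intermediate filament, ranged 647 to 2204 CPM in Endo (median 840.4), against 0.135 to 44.1 CPM in IVD Conc (median 0.789) (log2 fold change 7.47, SE 1.1, adjusted p = 2.47e-06). The highest IVD Conc value of VIM was 44.1 CPM in replicate 4, and the other 7 sections were at 1.83 CPM or less, which put the log2 fold change at 10.44 without replicate 4. ZEB1 (73.6 to 338 CPM, median 161, in Endo and 0.188 to 1.43 CPM, median 0.551, in IVD Conc, log2 fold change 7.89), ZEB2 (medians of 48.9 CPM in Endo and 0.0854 CPM in IVD Conc, log2 fold change 6.98) and SNAI2 (medians of 213 CPM in Endo and 0.616 CPM in IVD Conc, log2 fold change 5.97), repressors of epithelial genes, followed VIM. ENG, a co-receptor for TGF-beta on endothelium and stroma, ranged 258 to 587 CPM in Endo (median 372), against 0.196 to 1.23 CPM in IVD Conc (median 0.484) (log2 fold change 9.47). PDGFRB, the receptor of pericytes and fibroblasts, had medians of 638 CPM in Endo and 2.25 CPM in IVD Conc (log2 fold change 7.73).

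Some genes placed in the stromal list were higher in IVD Conc without a large contrast. NT5E, the ecto-nucleotidase CD73, ranged 4.4 to 20 CPM in Endo (median 8.58), against 1.64 to 320.3 CPM in IVD Conc (median 123) (log2 fold change -3.61), and WNT4 ranged 2.72 to 9.31 CPM in Endo (median 4.78), against 0.167 to 225 CPM in IVD Conc (median 56) (log2 fold change -4.23), so both overlapped between groups. PDPN, the surface protein podoplanin, had medians of 847 CPM in Endo and 1533 CPM in IVD Conc (log2 fold change -0.81). These 3 genes carried most of the summed level of the stromal list in IVD Conc, which was 376 CPM in replicate 1 against 1374 to 2939 CPM in the other 7 sections. NR2F2 (medians of 112 CPM in Endo and 15.1 CPM in IVD Conc, log2 fold change 2.86) and PDGFRA (medians of 316 CPM in Endo and 23.8 CPM in IVD Conc, log2 fold change 2.94), a nuclear receptor and a growth factor receptor of stroma, differed but stayed under 8-fold. Without IVD Conc replicate 1, their log2 fold changes were 3.06 and 3.39 and both had a large contrast.

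Vascular transcripts had the largest share of Endo contrasts among the 27 lists. Of 20 endothelial genes tested, 17 had a large contrast in Endo and 0 in IVD Conc, 10 were restricted, and the median log2 fold change was 5.94. CDH5, the cadherin of endothelial junctions, ranged 362 to 1033 CPM in Endo (median 695), against 0.0269 to 7.68 CPM in IVD Conc (median 2.63) (log2 fold change 7.80, SE 0.818, adjusted p = 1.65e-08). VWF, the clotting factor stored in endothelium, ranged 133 to 874 CPM in Endo (median 449), against 0.515 to 28.5 CPM in IVD Conc (median 9.01) (log2 fold change 5.32), and PECAM1 ranged 54.1 to 361 CPM in Endo (median 189), against 3.59 to 22.7 CPM in IVD Conc (median 5.14) (log2 fold change 4.36). The receptors TIE1 (medians of 102 CPM in Endo and 0.649 CPM in IVD Conc, log2 fold change 6.90) and TEK (medians of 40.3 CPM in Endo and 0.164 CPM in IVD Conc, log2 fold change 5.71) and the transcription factors SOX18 (log2 fold change 6.50) and FLI1 (log2 fold change 7.30) were restricted to Endo. TEK and FLI1 were highest among sections in IVD Conc replicate 4, at 5.18 and 3.60 CPM, and without it their log2 fold changes were 8.12 and 9.92. FLT1, a receptor for VEGF and placental growth factor that trophoblast also makes in humans, overlapped between groups at medians of 854 CPM in Endo and 99 CPM in IVD Conc (log2 fold change 2.65).

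Smooth muscle and pericyte genes were divided. Of 18 tested, 6 had a large contrast in Endo and 0 in IVD Conc, with a median of 2.21. MYH11, the smooth muscle myosin, ranged 11.1 to 156 CPM in Endo (median 77.4), against 0.503 to 1.25 CPM in IVD Conc (median 0.696) (log2 fold change 6.37), and MCAM, a pericyte adhesion protein, ranged 245 to 888 CPM in Endo (median 433), against 0.646 to 5.68 CPM in IVD Conc (median 2.36) (log2 fold change 7.55). Desmin (DES) had medians of 113 CPM in Endo and 1.43 CPM in IVD Conc (log2 fold change 4.76). CALD1, which binds actin and also occurs outside muscle, was higher in IVD Conc at medians of 144 CPM in Endo and 676 CPM in IVD Conc (log2 fold change -2.87), and TAGLN had medians of 225 CPM in Endo and 194 CPM in IVD Conc and did not pass the test (adjusted p = 0.458).

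Leukocyte transcripts were mostly higher in Endo, and blood transcripts differed by gene. Of 25 leukocyte genes tested, 17 were higher in Endo and 3 in IVD Conc by the adjusted p, 10 had a large contrast in Endo and 1 in IVD Conc, with a median of 2.68. The monocyte receptor CD14 ranged 48.4 to 200.3 CPM in Endo (median 120.0), against 0.129 to 26.6 CPM in IVD Conc (median 5.57) (log2 fold change 3.81), the T cell receptor component CD3E ranged 0.885 to 7.4 CPM in Endo (median 2.53), against 0.0245 to 0.148 CPM in IVD Conc (median 0.0536) (log2 fold change 5.46) and the lymph node homing receptor CCR7 ranged 1.3 to 37.6 CPM in Endo (median 7.32), against 0 to 0.193 CPM in IVD Conc (median 0.0221) (log2 fold change 7.70). GZMB, a protease of cytotoxic cells, ranged 0.394 to 34.3 CPM in Endo (median 1.7), against 2.61 to 102 CPM in IVD Conc (median 24.3) (log2 fold change -2.98) and overlapped. Another gene identifier with the symbol GZMB fell below the filter, at most 0.325 CPM in Endo and 0.971 CPM in IVD Conc. The B cell genes CD79A and CD79B stayed under 3 CPM in every library of both tissues. Of 6 blood genes tested, 2 had a large contrast in Endo and 1 in IVD Conc, with a median of 2.04. HBA, a hemoglobin chain, ranged 1.13 to 379 CPM in Endo (median 55), against 0.464 to 2.32 CPM in IVD Conc (median 1.04) (log2 fold change 6.02), overlapping between groups, and ALAS2, the heme synthesis enzyme of red cell precursors, was higher in IVD Conc at medians of 0 CPM in Endo and 2.55 CPM in IVD Conc (log2 fold change -6.42).

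Epithelial genes were expressed in both tissues and were mostly higher in IVD Conc. Of 36 epithelial genes tested, 5 were higher in Endo and 28 in IVD Conc by the adjusted p, 0 had a large contrast in Endo and 8 in IVD Conc, and the median log2 fold change was -1.78. The simple keratin KRT8 ranged 68.4 to 495 CPM in Endo (median 298), against 3873 to 12472 CPM in IVD Conc (median 7045) (log2 fold change -4.92, SE 0.316, adjusted p = 8.84e-12). KRT18, its partner, ranged 33.7 to 297 CPM in Endo (median 151), against 2024 to 9959.9 CPM in IVD Conc (median 4071) (log2 fold change -5.09), and KRT19 ranged 27 to 425 CPM in Endo (median 186), against 5712 to 9129.5 CPM in IVD Conc (median 6652) (log2 fold change -4.95). No Endo library reached the lowest section for any of the 3 keratins. By percentile ranks the 3 keratins did not pass the limit of 30 points, and 4 epithelial genes had a large contrast in IVD Conc instead of 8. Median percentiles in Endo were already 96.5 for KRT8, 92.6 for KRT18 and 94.8 for KRT19, too near the top of the scale for a rise of 30 points.

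Adhesion genes followed the keratins. The desmosome genes DSP (medians of 60.5 CPM in Endo and 756 CPM in IVD Conc, log2 fold change -3.79), DSG2 (medians of 26.3 CPM in Endo and 711 CPM in IVD Conc, log2 fold change -4.56), DSC2 (medians of 18.8 CPM in Endo and 520.3 CPM in IVD Conc, log2 fold change -4.60) and PKP2 (medians of 3.59 CPM in Endo and 165 CPM in IVD Conc, log2 fold change -5.68) had a large contrast in IVD Conc. CLDN6, a tight junction claudin of embryonic epithelia, was the 1 epithelial gene restricted to IVD Conc, ranging 0.412 to 18 CPM in Endo (median 0.959), against 692 to 1417 CPM in IVD Conc (median 862) (log2 fold change -8.22). The adherens junction cadherin CDH1 overlapped between groups at medians of 256 CPM in Endo and 651 CPM in IVD Conc (log2 fold change -1.21), as did KRT7 at medians of 129 CPM in Endo and 121 CPM in IVD Conc (log2 fold change 0.17, adjusted p = 0.741). A few members were higher in Endo, among them the claudin CLDN3 (medians of 82.4 CPM in Endo and 29 CPM in IVD Conc, log2 fold change 1.42) and the epithelial transcription factor ELF3 (medians of 387 CPM in Endo and 113 CPM in IVD Conc, log2 fold change 1.78).

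Motile cilia genes were more abundant in Endo. Of 18 cilia genes tested, 18 were higher in Endo by the adjusted p, 15 had a large contrast, 11 were restricted, and the median was 6.29. FOXJ1, the regulator of motile ciliogenesis, ranged 3.03 to 104 CPM in Endo (median 48.8), against 0.292 to 1.6 CPM in IVD Conc (median 0.71) (log2 fold change 6.01, adjusted p = 1.03e-09). Its lowest Endo value was 3.03 CPM in replicate 1, and the other 12 Endo libraries were at 30.2 CPM or more. The axonemal dyneins DNAH9 (2.64 to 118 CPM, median 67.1, in Endo and 0.0774 to 0.477 CPM, median 0.227, in IVD Conc, log2 fold change 7.99) and DNAH5 (0.702 to 50.7 CPM, median 20.8, in Endo and 0 to 0.16 CPM, median 0.0536, in IVD Conc, log2 fold change 8.05) and ZMYND10, a dynein assembly factor (medians of 26.6 CPM in Endo and 0.105 CPM in IVD Conc, log2 fold change 8.11), gave the largest contrasts. The summed level of the list was 269 to 1062 CPM in Endo and 15.4 to 20.4 CPM in IVD Conc.

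Gland and secretory genes were less clear cut. Of 32 tested, 7 had a large contrast in Endo and 2 in IVD Conc, with a median of 1.77, and by percentile ranks 4 had a large contrast in Endo. GRP, the gastrin-releasing peptide of uterine glands, ranged 22.4 to 4212 CPM in Endo (median 427), against 0.221 to 1.25 CPM in IVD Conc (median 0.46) (log2 fold change 11.02, SE 1.14, adjusted p = 1.45e-08), a wide spread among Endo libraries. LTF, the iron-binding lactoferrin, ranged 2.61 to 272 CPM in Endo (median 17), against 0 to 0.641 CPM in IVD Conc (median 0.189) (log2 fold change 7.58), and MUC20, a membrane mucin, ranged 1.05 to 114 CPM in Endo (median 12.4), against 0 to 0.752 CPM in IVD Conc (median 0.178) (log2 fold change 6.66). STC1, the hormone stanniocalcin, ranged 619 to 2370.5 CPM in Endo (median 1589), against 0.0515 to 29.4 CPM in IVD Conc (median 13) (log2 fold change 6.82), and IGFBP3, which binds insulin-like growth factors, ranged 718 to 4909 CPM in Endo (median 2769), against 17.3 to 202 CPM in IVD Conc (median 135) (log2 fold change 4.59). SPP1, the adhesion protein osteopontin, was higher in Endo but overlapped, ranging 7.37 to 258 CPM in Endo (median 85.7), against 0.0632 to 8.49 CPM in IVD Conc (median 0.678) (log2 fold change 5.48), and without IVD Conc replicate 4 it had a large contrast (6.32).

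The 2 members with a large contrast in IVD Conc were proteases. CTSL, a cathepsin, ranged 1.05 to 7.38 CPM in Endo (median 1.64), against 30.1 to 1567 CPM in IVD Conc (median 867) (log2 fold change -8.51, SE 0.593, adjusted p = 3.04e-11), and DPP4, a dipeptidyl peptidase, ranged 0.218 to 5.72 CPM in Endo (median 2.68), against 27.6 to 134 CPM in IVD Conc (median 58.9) (log2 fold change -4.67). CTSV, another cathepsin, overlapped between groups, at 94.1 to 886 CPM in Endo and 131 to 1020 CPM in IVD Conc. LGALS3, a galectin, overlapped between groups at medians of 131 CPM in Endo and 1179.9 CPM in IVD Conc (log2 fold change -3.43). FOXA2, a transcription factor of uterine glands and of endoderm, ranged 0.799 to 24.9 CPM in Endo (median 7.23), against 4.9 to 55.3 CPM in IVD Conc (median 22) (log2 fold change -1.23), and MUC1 had medians of 58.2 CPM in Endo and 87.7 CPM in IVD Conc and did not pass the test (adjusted p = 0.458).

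Transcription factors of the Müllerian duct, from which the uterus forms, were another Endo group. Of 38 HOX and Müllerian duct genes tested, 20 had a large contrast in Endo and 1 in IVD Conc, 12 were restricted to Endo, and the median was 3.16. WT1, a regulator of the urogenital ridge, ranged 27.4 to 168 CPM in Endo (median 73.6), against 0 to 0.284 CPM in IVD Conc (median 0.0682) (log2 fold change 9.78, SE 0.643, adjusted p = 1.22e-11). PAX2 ranged 35.8 to 336 CPM in Endo (median 68.2), against 0 to 0.657 CPM in IVD Conc (median 0.0812) (log2 fold change 8.87) and EMX2 ranged 26.8 to 66.4 CPM in Endo (median 44.2), against 0 to 1.05 CPM in IVD Conc (median 0.345) (log2 fold change 6.60), both being factors of the duct itself. HOXD11 (medians of 13.5 CPM in Endo and 0.0369 CPM in IVD Conc, log2 fold change 8.12), HOXA5 (medians of 20.1 CPM in Endo and 0.065 CPM in IVD Conc, log2 fold change 7.47) and HOXA9 (medians of 14.4 CPM in Endo and 0.308 CPM in IVD Conc, log2 fold change 6.21) and the HOX cofactors MEIS1 (log2 fold change 5.67) and MEIS2 (log2 fold change 5.96) were restricted to Endo. ISL1 was the exception, at 0.0399 CPM or less in Endo and 0.386 to 1.87 CPM in IVD Conc (median 1.27) (log2 fold change -6.32). The HOXC genes HOXC4 to HOXC9 showed no large contrast in either direction. HOXA10 and HOXA11, the usual uterine HOX genes, were listed only for endometrium, with medians of 21.8 and 56.5 CPM, and have no IVD Conc value.

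Among receptors for hormones and related ligands, 7 of 19 tested had a large contrast in Endo and 1 in IVD Conc, with a median of 1.69. By percentile ranks 4 of them had a large contrast in Endo. PGR, the progesterone receptor, was the member restricted to Endo, ranging 24 to 82.5 CPM in Endo (median 52.1), against 0.116 to 1.31 CPM in IVD Conc (median 0.663) (log2 fold change 6.28, SE 0.453, adjusted p = 5.03e-11). The glucocorticoid receptor NR3C1 ranged 31.6 to 97.6 CPM in Endo (median 44.7), against 0.708 to 7.47 CPM in IVD Conc (median 3.73) (log2 fold change 3.67), and the prostaglandin E receptors PTGER2 (medians of 4.18 CPM in Endo and 0.0528 CPM in IVD Conc, log2 fold change 6.44) and PTGER4 (medians of 6.55 CPM in Endo and 0.27 CPM in IVD Conc, log2 fold change 4.67) were also higher in Endo. The prolactin receptor PRLR ranged 0.044 to 0.524 CPM in Endo (median 0.144), against 2.66 to 22.7 CPM in IVD Conc (median 4.93) (log2 fold change -4.95), the 1 large contrast in IVD Conc. PTGFR, the receptor for prostaglandin F2-alpha, was higher in IVD Conc at 0 to 0.208 CPM in Endo (median 0), against 0.116 to 28.2 CPM in IVD Conc (median 8.31) (log2 fold change -7.92), where replicate 1 overlapped Endo, and it had a large contrast without that replicate (-8.11). The membrane progesterone-binding proteins PGRMC1 (medians of 133 CPM in Endo and 222 CPM in IVD Conc) and PGRMC2 (medians of 86.3 CPM in Endo and 149.8 CPM in IVD Conc) were high in both tissues. ESR1, an estrogen receptor, and OXTR, the oxytocin receptor, were listed only for endometrium, with medians of 82.4 and 23.6 CPM.

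Prostaglandin genes differed by member. Of 19 tested, 8 were higher in Endo and 10 in IVD Conc by the adjusted p, where the shares over all genes were 38.2% and 40.1%. A large contrast was found in Endo for 5 and in IVD Conc for 0, and the median was -0.42. PTGS2, the inducible cyclooxygenase, ranged 13.7 to 724 CPM in Endo (median 222), against 21.1 to 5851 CPM in IVD Conc (median 3819) (log2 fold change -3.71, SE 0.656, adjusted p = 2.55e-05). In IVD Conc replicates 1 to 8 it measured 21.1, 5851, 1216, 2768, 5248, 1220.3, 5851 and 4870.5 CPM, so replicate 1 lay inside the Endo range and the other 7 sections lay above it. Without replicate 1, PTGS2 had a large contrast (-3.90). The prostaglandin F synthase AKR1B1 (medians of 60.7 CPM in Endo and 1130.5 CPM in IVD Conc, log2 fold change -3.47), the prostaglandin E synthase PTGES (medians of 16.5 CPM in Endo and 101 CPM in IVD Conc, log2 fold change -3.43) and the carrier SLCO2A1 (medians of 15.1 CPM in Endo and 105 CPM in IVD Conc, log2 fold change -2.76) were higher in IVD Conc with overlapping groups. HPGD, which inactivates prostaglandins, ranged 16.5 to 592 CPM in Endo (median 37.8), against 0.0662 to 1.27 CPM in IVD Conc (median 0.18) (log2 fold change 7.85), and PTGS1, the other cyclooxygenase, ranged 4.77 to 19.8 CPM in Endo (median 9.75), against 0.161 to 1.9 CPM in IVD Conc (median 0.348) (log2 fold change 4.19).

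Steroid-making enzymes were mostly higher in IVD Conc. Of 19 tested, 4 were higher in Endo and 13 in IVD Conc by the adjusted p, each tissue had 2 large contrasts, and the median was -1.55. HSD3B1, which makes progesterone from pregnenolone, ranged 0 to 0.149 CPM in Endo (median 0.0724), against 2.19 to 124 CPM in IVD Conc (median 57) (log2 fold change -9.51, SE 0.608, adjusted p = 8.03e-12). CYP11A1, which cuts the cholesterol side chain, was at most 0.714 CPM in Endo and measured 0.386, 584, 9.06, 67.8, 262, 33.7, 383 and 483 CPM in IVD Conc replicates 1 to 8. Replicate 1 overlapped Endo, and without it CYP11A1 had a large contrast (-9.21, against -9.02 with it). In Endo, HSD11B2, which inactivates cortisol, had a large contrast (medians of 7.86 CPM in Endo and 0.0913 CPM in IVD Conc, log2 fold change 6.33).

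MHC class I transcripts were abundant in Endo and low in the sections. Of 20 genes of class I presentation tested, 10 had a large contrast in Endo and 0 in IVD Conc, 5 were restricted, and the median was 3.06. The class I genes BOLA (638 to 1232 CPM, median 804, in Endo and 0.0807 to 24.8 CPM, median 0.332, in IVD Conc, log2 fold change 7.99), JSP.1 (105 to 1712 CPM, median 688, in Endo and 0.199 to 11.6 CPM, median 0.669, in IVD Conc, log2 fold change 8.29) and BOLA-NC1 (116 to 305 CPM, median 193, in Endo and 0.0386 to 1.7 CPM, median 0.258, in IVD Conc, log2 fold change 8.79) were restricted to Endo. Replicate 4 gave the highest section value of BOLA and JSP.1, at 24.8 and 11.6 CPM, and without it their log2 fold changes were 11.47 and 9.57. These genes are close copies of each other, and reads shared between them make single levels uncertain. B2M, the light chain of class I molecules, ranged 398 to 661 CPM in Endo (median 559.9), against 6.33 to 38.9 CPM in IVD Conc (median 16.8) (log2 fold change 4.93, SE 0.326, adjusted p = 1.36e-11), so a low level was measured in all 8 sections.

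Genes that act around class I molecules did not all follow them. NLRC5, the activator of class I transcription, ranged 21.9 to 69.8 CPM in Endo (median 24.6), against 0.146 to 1.31 CPM in IVD Conc (median 0.606) (log2 fold change 5.51), and the immunoproteasome subunit PSMB8 ranged 70.3 to 134 CPM in Endo (median 81), against 0.0789 to 1.49 CPM in IVD Conc (median 0.319) (log2 fold change 7.66). The peptide transporter TAP1 had medians of 112 CPM in Endo and 34.5 CPM in IVD Conc (log2 fold change 1.56), and the chaperones PDIA3 (medians of 888 CPM in Endo and 952 CPM in IVD Conc, log2 fold change -0.03) and CALR (medians of 1514 CPM in Endo and 1059 CPM in IVD Conc, log2 fold change 0.64) were close in both tissues. Of 7 class II genes, 5 had a large contrast in Endo, with a median of 6.54. BOLA-DRA ranged 39.1 to 307 CPM in Endo (median 115), against 0 to 0.197 CPM in IVD Conc (median 0) (log2 fold change 11.71, SE 0.839, adjusted p = 4.53e-11), and CD74, the invariant chain, ranged 128 to 637 CPM in Endo (median 300.4), against 0.0331 to 5.3 CPM in IVD Conc (median 0.134) (log2 fold change 8.62). Without IVD Conc replicate 4 the log2 fold change was 13.36 for BOLA-DRA and 10.98 for CD74. IFI30, a lysosomal reductase, was the class II gene higher in IVD Conc, at medians of 22.7 CPM in Endo and 70.2 CPM in IVD Conc (log2 fold change -1.69).

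Interferon tau genes and IFNAR2, a chain of the receptor for it, lay on opposite sides. IFNT3 was at most 0.109 CPM in Endo and measured 10.8, 3369, 301, 1066, 2715, 434, 2115 and 2260.5 CPM in IVD Conc replicates 1 to 8 (log2 fold change -15.08, SE 0.876, adjusted p = 1.94e-12). Replicate 1 was the lowest section, and without it the log2 fold change was -15.27. IFNT2 ranged 0 to 0.325 CPM in Endo (median 0.111), against 0.348 to 809 CPM in IVD Conc (median 168) (log2 fold change -11.13), and IFN-tau-c1, another copy of the gene that was named after its values were seen, ranged 0.0199 to 0.233 CPM in Endo (median 0.0552), against 1.27 to 231 CPM in IVD Conc (median 106) (log2 fold change -10.25). The groups did not overlap for these 3 copies, which may share reads. IFNAR2, the signalling chain, ranged 57.5 to 181 CPM in Endo (median 119), against 0.0258 to 0.974 CPM in IVD Conc (median 0.116) (log2 fold change 8.85, SE 0.618, adjusted p = 3.08e-11). IFNAR1, the other chain, ranged 92.7 to 219 CPM in Endo (median 132), against 35.2 to 77.3 CPM in IVD Conc (median 52.3) (log2 fold change 1.51), so that sections held 1 receptor chain at 35.2 CPM or more and the other under 1 CPM.

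Of 43 genes of interferon signalling and response tested, 18 had a large contrast in Endo and 0 in IVD Conc, 8 were restricted to Endo, and the median was 2.63. JAK1, the kinase below the receptor, ranged 349 to 855 CPM in Endo (median 588), against 61 to 95.1 CPM in IVD Conc (median 81.5) (log2 fold change 2.89). STING1, the adaptor for cytosolic DNA sensing, ranged 3.37 to 27.4 CPM in Endo (median 11.8), against 0 to 0.616 CPM in IVD Conc (median 0.064) (log2 fold change 6.68). The response genes IFI6 (10.8 to 94.9 CPM, median 25.4, in Endo and 0 to 0.296 CPM, median 0.073, in IVD Conc, log2 fold change 8.41), RSAD2 (medians of 18.5 CPM in Endo and 0.139 CPM in IVD Conc, log2 fold change 7.14) and ISG15 (9.01 to 65.9 CPM, median 17.4, in Endo and 0.0942 to 2.37 CPM, median 0.403, in IVD Conc, log2 fold change 4.85) were restricted to Endo, in explants cultured without a conceptus. OAS1X and OAS1Y, close copies that may share reads, were restricted as well (log2 fold change 7.19 and log2 fold change 6.69). USP18, which removes ISG15 from proteins, went the other way at medians of 8.79 CPM in Endo and 39 CPM in IVD Conc (log2 fold change -2.13). In the co-culture libraries of the same tissues, 31 of the interferon genes had a large contrast in Endo, against 18 here.

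**Figure D4:**
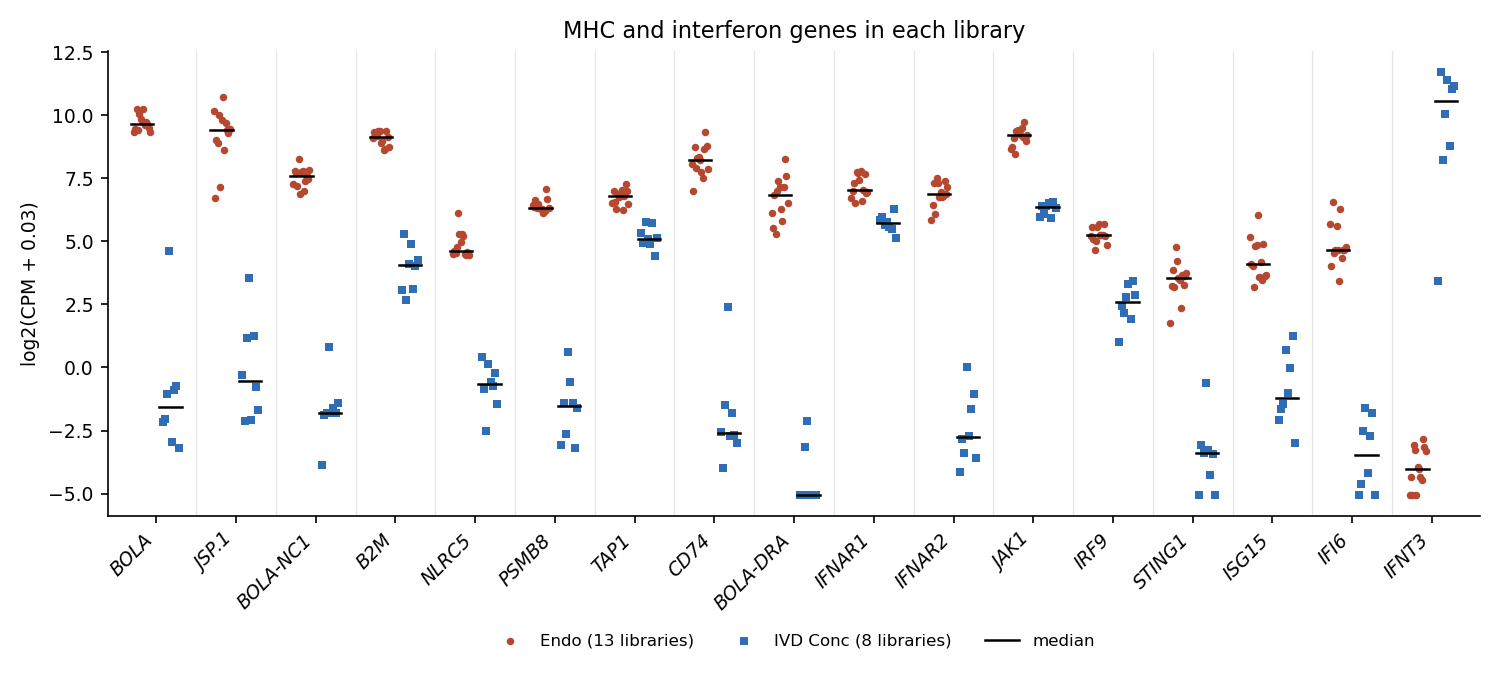
Level of 17 MHC and interferon genes in each library, as log2(CPM + 0.03), with Endo as red circles on the left of each gene, IVD Conc as blue squares on the right and black bars at the group medians. BOLA, CD74 and IFNAR2 lie high in Endo and near the floor in most sections, IFNAR1 and TAP1 differ far less between the tissues, and IFNT3 is the gene that lies higher in IVD Conc, with replicate 1 lowest at 10.8 CPM.

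Trophoblast transcription factors were higher in IVD Conc but differed widely among sections. Of 32 tested, 3 were higher in Endo and 23 in IVD Conc by the adjusted p, 0 had a large contrast in Endo and 5 in IVD Conc, and the median was -1.90. The 5 were HAND1, CDX2, TFAP2A, ESRRB and MSX2. CDX2, a factor that sets trophoblast fate, ranged 0 to 0.15 CPM in Endo (median 0), against 4.66 to 57.2 CPM in IVD Conc (median 25.5) (log2 fold change -10.53, SE 0.712, adjusted p = 1.88e-11). HAND1 ranged 0 to 0.088 CPM in Endo (median 0), against 0.592 to 524 CPM in IVD Conc (median 94.6) (log2 fold change -12.75), TFAP2A ranged 0.506 to 1.69 CPM in Endo (median 0.887), against 2.05 to 206 CPM in IVD Conc (median 95.7) (log2 fold change -6.65) and MSX2 ranged 3.0 to 7.52 CPM in Endo (median 3.92), against 53.4 to 192 CPM in IVD Conc (median 105) (log2 fold change -4.70). GATA3, a factor of trophoblast identity, was 1.32 to 5.88 CPM in Endo and measured 2.09, 287, 14.1, 70.7, 275, 44, 274 and 332 CPM in IVD Conc replicates 1 to 8 (log2 fold change -5.82), so replicate 1 alone lay within the Endo range. Without replicate 1, 9 of the factors had a large contrast, GATA3 (-6.00) and DLX4 (-5.28) among them. GATA2 (medians of 109.5 CPM in Endo and 262 CPM in IVD Conc, adjusted p = 0.114) and TEAD3 (medians of 83.7 CPM in Endo and 129 CPM in IVD Conc, adjusted p = 0.054) did not pass the test, and KLF4 was higher in Endo (medians of 189.7 CPM in Endo and 26.2 CPM in IVD Conc, log2 fold change 2.64).

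Secreted products of trophoblast were far more abundant in IVD Conc. Of 12 tested, 0 had a large contrast in Endo and 9 in IVD Conc, 8 were restricted, and the median was -11.67, while 22 further members were listed only for endometrium and have no IVD Conc value. PAG2 ranged 0 to 0.088 CPM in Endo (median 0), against 26.5 to 4651 CPM in IVD Conc (median 1435) (log2 fold change -16.81, SE 0.99, adjusted p = 2.44e-12), PAG8 ranged 0 to 0.0797 CPM in Endo (median 0), against 12.5 to 301 CPM in IVD Conc (median 125) (log2 fold change -12.21), and SSLP1, a secreted Ly-6 protein, ranged 1.28 to 29.8 CPM in Endo (median 5.51), against 80.7 to 5605 CPM in IVD Conc (median 2771) (log2 fold change -8.43). PAG12, below the filter, had no count in Endo and 0.0258 to 511 CPM in IVD Conc. The gene with the symbol PAG1 went against the list, at 1.75 to 5.94 CPM in Endo (median 3.44), against 0.343 to 0.915 CPM in IVD Conc (median 0.594) (log2 fold change 2.59), a low level in both tissues. List members were matched by symbol alone, and whether this gene is a pregnancy-associated glycoprotein was not checked. CYP19A1, the enzyme that makes estrogens, was also below the filter, at most 0.0797 CPM in Endo and 0 to 11.8 CPM in IVD Conc.

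Hypoblast and yolk sac endoderm genes formed another IVD Conc group. Of 32 tested, 2 were higher in Endo and 26 in IVD Conc by the adjusted p, 1 had a large contrast in Endo and 20 in IVD Conc, 11 were restricted to IVD Conc, and the median was -4.60. The endoderm factor GATA4 ranged 0 to 0.0797 CPM in Endo (median 0.0317), against 16.1 to 156 CPM in IVD Conc (median 54.3) (log2 fold change -11.29, SE 0.585, adjusted p = 3.57e-13), and HNF4A ranged 0 to 0.805 CPM in Endo (median 0.308), against 24.4 to 197 CPM in IVD Conc (median 86.9) (log2 fold change -8.22). GATA6, which acts with GATA4, ranged 2.08 to 9.39 CPM in Endo (median 6.46), against 54.2 to 80.6 CPM in IVD Conc (median 65.9) (log2 fold change -3.47), a narrow span among sections. Plasma proteins made by yolk sac differed by member. APOA1, the main protein of high-density lipoprotein, ranged 2.63 to 21.8 CPM in Endo (median 6.0), against 1899 to 5887 CPM in IVD Conc (median 3297) (log2 fold change -8.81), and AHSG, a fetuin, ranged 0.12 to 9.75 CPM in Endo (median 0.846), against 912 to 7251 CPM in IVD Conc (median 2283) (log2 fold change -10.35). FGA, a fibrinogen chain, had no count in Endo and 15.6 to 316 CPM in IVD Conc (median 32.1), at least 1628-fold higher. APOE, a lipid carrier, overlapped between groups at 114 to 1017 CPM in Endo (median 306), against 579 to 4446 CPM in IVD Conc (median 1540.4) (log2 fold change -2.18), and APOA4, below the filter, was at most 0.119 CPM in Endo and 0.199 to 2.66 CPM in IVD Conc. LRP2, an endocytic receptor of yolk sac and other absorbing epithelia, ranged 4.48 to 466 CPM in Endo (median 28.3), against 732 to 2734 CPM in IVD Conc (median 1142) (log2 fold change -4.16). SOX7 was the member with a large contrast in Endo, at 34.8 to 133 CPM in Endo (median 58.3), against 0.167 to 1.8 CPM in IVD Conc (median 0.893) (log2 fold change 6.01), and it is a factor of endothelium too. SOX17 did not pass the test at medians of 83.7 CPM in Endo and 55.4 CPM in IVD Conc (log2 fold change 0.40, adjusted p = 0.306).

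Genes of the embryonic disc and of pluripotent cells were mostly at or near 0 in Endo. Of 11 tested, 0 had a large contrast in Endo and 9 in IVD Conc, and the median was -10.32, or -9.31 with genes at 0 in Endo set to their bound. LIN28A, an RNA-binding protein of early embryos, had no Endo count and 42.8 to 105 CPM in IVD Conc (median 64.4), at least 1251-fold higher. ZFP42 likewise had no Endo count and 35.7 to 65.4 CPM in IVD Conc (median 44.9), at least 837-fold higher, and SALL4, a zinc finger factor of pluripotent cells, ranged 0 to 0.065 CPM in Endo (median 0), against 54.5 to 108 CPM in IVD Conc (median 81.3) (log2 fold change -12.04, SE 0.418, adjusted p = 1.81e-15). These 3 transcripts varied by less than 3 fold among the 8 sections. POU5F1, the pluripotency factor OCT4, was at most 0.107 CPM in Endo, and 106 CPM in IVD Conc replicate 4 and 0.753 to 11.8 CPM in the other 7 sections (log2 fold change -9.86, or -8.02 without replicate 4). TDGF1, a co-receptor for NODAL, did not pass the test at 0.393 to 557 CPM in Endo (median 6.59), against 7.25 to 256 CPM in IVD Conc (median 50.7) (adjusted p = 0.637), with 3 Endo libraries at 371, 557 and 402 CPM.

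The 8 sections differed widely in trophoblast and hypoblast genes. Replicates 2, 5, 7 and 8 were the 4 highest in TKDP1 and the 4 lowest in GATA4. TKDP1 measured 450.4, 33379, 1467, 4733, 24537, 4527, 21780.0 and 26659 CPM in replicates 1 to 8. GATA4 measured 156, 29.6, 142, 68.8, 25, 130.5, 39.9 and 16.1 CPM in the same order. FN1 measured 28270.0, 6734, 28331, 12924, 6892, 29321, 13700.0 and 3372 CPM, with its 3 highest values in the 3 sections lowest in GATA3. Other hypoblast genes had another order, AHSG being lowest in replicate 1 at 912 CPM and 3969 CPM in replicate 7, and DAB2, an endocytic adaptor, being highest in replicates 8, 5 and 2 at 591, 398 and 337 CPM. The summed level of trophoblast secreted products ran from 1085 to 63085 CPM among sections, while that of the hypoblast list ran from 15169 to 40611 CPM.

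Replicate 4 stood apart in some disc and mesenchymal transcripts and not in others. NANOG, a pluripotency factor below the filter, had no Endo count and was 12.0 CPM in replicate 4, against at most 0.188 CPM in the other 7 sections. AFP, the fetal plasma protein, was 92.3 CPM there against at most 0.155 CPM, and EOMES, a factor of early mesoderm and trophoblast, was 17.3 CPM against at most 0.142 CPM. VRTN was 29.8 CPM against at most 0.464 CPM. TDGF1 and PDGFRA were instead highest in replicate 1, at 256 and 123 CPM, against 72.1 and 54.6 CPM in replicate 4. Endo contrasts that grew without replicate 4 included COL5A2 (13.63 without it and 8.35 with it), TNC (9.38 and 5.82), CXCL12 (7.03 and 4.84), ZEB2 (9.03 and 6.98) and MEIS2 (7.96 and 5.96). By contrast KRT8 and MKI67 spanned 3873 to 12472 CPM and 204 to 311 CPM over all 8 sections. What part the make-up of a section played in these differences was not tested.

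**Figure D5:**
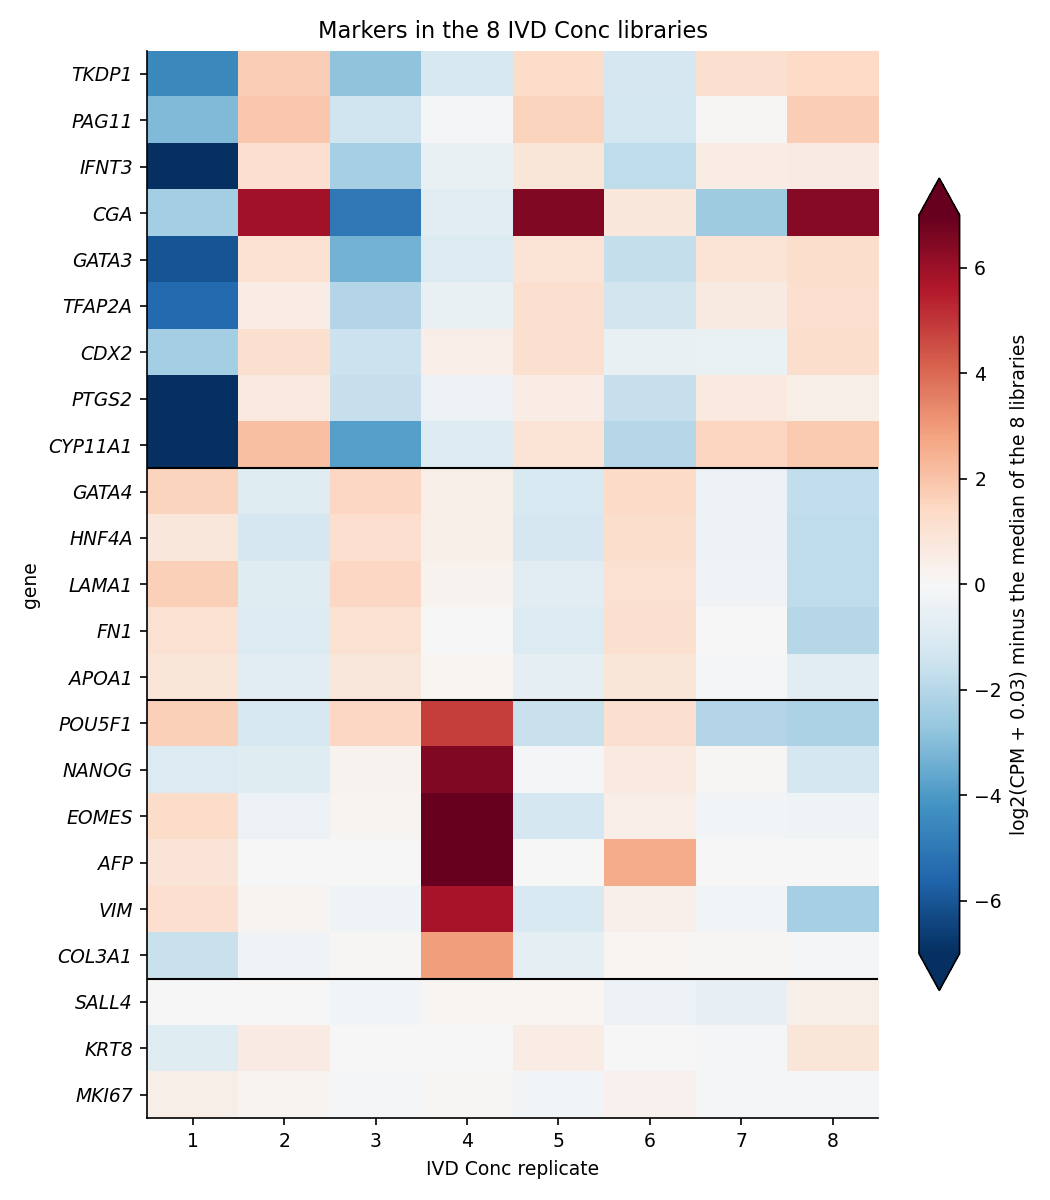
Heat map of 23 markers in the 8 IVD Conc replicates, as log2(CPM + 0.03) minus the gene's median over the 8 libraries, with colours that end at -7 and 7. Black lines part trophoblast genes, hypoblast genes, genes high in replicate 4 and genes even across sections. Replicate 1 is lowest in IFNT3, PTGS2 and CYP11A1, and replicate 4 is highest in POU5F1, NANOG, EOMES, AFP, VIM and COL3A1.

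Cell cycle transcripts were far more abundant in IVD Conc. Of 49 tested, 4 were higher in Endo and 42 in IVD Conc by the adjusted p, 0 had a large contrast in Endo and 27 in IVD Conc, 14 were restricted, and the median was -3.33. MKI67, the proliferation marker, ranged 0.253 to 31.8 CPM in Endo (median 0.726), against 204 to 311 CPM in IVD Conc (median 232) (log2 fold change -6.01, SE 0.867, adjusted p = 1.80e-06). Its highest Endo value was 31.8 CPM in replicate 1, and without that library the log2 fold change was -7.39. CDC20, an activator of anaphase, ranged 0.176 to 6.54 CPM in Endo (median 0.493), against 92.8 to 174 CPM in IVD Conc (median 123) (log2 fold change -6.93), and TOP2A, a topoisomerase of dividing cells, ranged 0.846 to 30.7 CPM in Endo (median 1.35), against 218 to 350.2 CPM in IVD Conc (median 246) (log2 fold change -5.91). CDK1, the mitotic kinase, ranged 2.06 to 9.5 CPM in Endo (median 2.75), against 75.4 to 113 CPM in IVD Conc (median 90) (log2 fold change -4.74). CCNB1, its cyclin, overlapped at 1.29 to 180.3 CPM in Endo (median 3.19), against 119 to 156 CPM in IVD Conc (median 139) (log2 fold change -2.32), with 1 Endo library at 180 CPM. Among inhibitors of the cycle, CDKN1A (medians of 643 CPM in Endo and 97.1 CPM in IVD Conc, log2 fold change 2.49) and CDKN1B (medians of 167 CPM in Endo and 50.9 CPM in IVD Conc, log2 fold change 1.63) went the other way. CDKN1C, an inhibitor given with the imprinted genes, had its higher median in IVD Conc.

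DNA methylation enzymes differed by member. Of 15 tested, 1 had a large contrast in Endo and 5 in IVD Conc, with a median of -0.21. TET1, which oxidises methylcytosine in early embryos, ranged 0.357 to 2.76 CPM in Endo (median 0.798), against 77.9 to 161 CPM in IVD Conc (median 116) (log2 fold change -6.70, SE 0.355, adjusted p = 4.88e-13), and the de novo methyltransferase DNMT3B ranged 0.858 to 8.6 CPM in Endo (median 1.6), against 56.9 to 173 CPM in IVD Conc (median 91.1) (log2 fold change -5.54). The maintenance enzyme DNMT1 (medians of 41.8 CPM in Endo and 43.1 CPM in IVD Conc, log2 fold change -0.21, adjusted p = 0.167) and DNMT3A (medians of 79.3 CPM in Endo and 87.1 CPM in IVD Conc, log2 fold change -0.13, adjusted p = 0.158) did not pass the test. UHRF1, which guides DNMT1, had medians of 4.14 CPM in Endo and 43.2 CPM in IVD Conc (log2 fold change -3.04), so near the 8-fold limit that other scalings and leaving out single libraries of either tissue put it on both sides. MBD2, a reader of methylated DNA, ranged 198 to 576 CPM in Endo (median 369), against 10.5 to 29.8 CPM in IVD Conc (median 17) (log2 fold change 4.37).

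Imprinted genes showed no common direction. Of 24 tested, 5 had a large contrast in Endo and 0 in IVD Conc, with a median of 0.37. The growth factor IGF2 ranged 399.9 to 1086 CPM in Endo (median 599), against 19.4 to 220.1 CPM in IVD Conc (median 98.7) (log2 fold change 2.62), while IGF2R, which clears it, ranged 21.9 to 38 CPM in Endo (median 29), against 160.0 to 267 CPM in IVD Conc (median 196) (log2 fold change -2.83), so ligand and receptor were apart in opposite directions under the 8-fold limit. KCNQ1, a potassium channel, had medians of 12.5 CPM in Endo and 0.0582 CPM in IVD Conc (log2 fold change 6.54), and CDKN1C, a cell cycle inhibitor, overlapped at medians of 16 CPM in Endo and 152 CPM in IVD Conc (log2 fold change -2.62).

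Transporters of glucose and amino acids differed by member. Of 38 tested, 3 had a large contrast in Endo and 9 in IVD Conc, with a median of -1.04. SLC2A2, a glucose carrier of endoderm and liver, ranged 0 to 0.0969 CPM in Endo (median 0), against 8.68 to 41.5 CPM in IVD Conc (median 22.6) (log2 fold change -11.03, SE 0.586, adjusted p = 5.15e-13), and SLC6A19, a neutral amino acid carrier, ranged 0 to 0.714 CPM in Endo (median 0.108), against 14.3 to 69.8 CPM in IVD Conc (median 26.6) (log2 fold change -7.60). SLC7A8, an amino acid exchanger, ranged 5.84 to 40.7 CPM in Endo (median 16.3), against 397 to 1750.2 CPM in IVD Conc (median 991) (log2 fold change -5.91), and the lactate carrier SLC16A1 ranged 44.6 to 127 CPM in Endo (median 75.1), against 544 to 2217 CPM in IVD Conc (median 1098) (log2 fold change -3.90). The main glucose carriers were high in both tissues, SLC2A1 at medians of 1077 CPM in Endo and 959 CPM in IVD Conc (log2 fold change 0.19, adjusted p = 0.325) and SLC2A3 at medians of 10796 CPM in Endo and 6574 CPM in IVD Conc (log2 fold change 0.66). SLC2A5, a fructose carrier, was higher in IVD Conc but overlapped, at 0 to 0.38 CPM in Endo (median 0.044), against 0.011 to 38.9 CPM in IVD Conc (median 12.1) (log2 fold change -7.62). Of 20 glycolysis genes tested, 1 had a large contrast, ENO2 in Endo (medians of 17.8 CPM in Endo and 0.873 CPM in IVD Conc, log2 fold change 3.39), and the median was -0.36.

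Heat shock transcripts were mostly higher in Endo. Of 23 heat shock genes tested, 16 were higher in Endo and 2 in IVD Conc at an adjusted p of at most 0.05, 5 had a large contrast in Endo and 0 in IVD Conc, and the median was 1.30. HSPA1A, the inducible HSP70, ranged 2424 to 30714 CPM in Endo (median 6442), against 150.3 to 616 CPM in IVD Conc (median 312) (log2 fold change 5.14, SE 0.611, adjusted p = 1.12e-07). In Endo replicates 1 to 13 it measured 26717, 24566, 18063, 30714, 2998, 3919, 6442, 5149, 19540.0, 9580.1, 3321, 2424 and 5224 CPM, so that replicates 1 to 4 and 9 were the 5 highest. DNAJB1 (medians of 1149.9 CPM in Endo and 93.8 CPM in IVD Conc, log2 fold change 4.49) and HSPH1 (medians of 1432 CPM in Endo and 119 CPM in IVD Conc, log2 fold change 4.17), co-chaperones of HSP70, and HSPA5, the chaperone of the endoplasmic reticulum (medians of 8928 CPM in Endo and 785 CPM in IVD Conc, log2 fold change 3.17), were higher in Endo. None of the 5 passed by percentile ranks, and 1 had a large contrast in the co-culture libraries. Median percentiles in IVD Conc were already 96.6 for HSPA1A, 86.7 for DNAJB1, 89.7 for HSPH1 and 99.0 for HSPA5. These lie too near the top of the scale for a rise of 30 points, so the ranks cannot decide for these genes. The immediate early genes, named after their values were seen, also had a large contrast, with EGR1 at 569 to 3381 CPM in Endo (median 1099), against 4.14 to 29.8 CPM in IVD Conc (median 12.7) (log2 fold change 6.86) and FOS at 270.4 to 2404 CPM in Endo (median 454), against 15.4 to 41.7 CPM in IVD Conc (median 17.7) (log2 fold change 5.07).

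Widely used reference genes served as a scale for the small differences. Of 28 tested, 25 differed at an adjusted p of at most 0.05 and 1 had a large contrast, TFRC, the transferrin receptor, in IVD Conc (medians of 13 CPM in Endo and 117 CPM in IVD Conc, log2 fold change -3.28), and the median was -0.55. ACTB, cytoplasmic actin, had medians of 2665 CPM in Endo and 7901 CPM in IVD Conc (log2 fold change -1.61), and the ribosomal protein genes RPS9 (log2 fold change -0.80) and RPL19 (log2 fold change 1.48) differed in opposite directions. HPRT1 (medians of 90.8 CPM in Endo and 74.8 CPM in IVD Conc, log2 fold change 0.07, adjusted p = 0.734) and EEF1A1 (medians of 9029 CPM in Endo and 7432 CPM in IVD Conc, log2 fold change 0.31) were nearer to even.

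Ligands and their receptors were read together over 70 pairs of growth factors, cytokines and morphogens. Of 64 ligands, 17 had a large contrast in Endo, 1 in IVD Conc, 30 in neither, 15 were listed only for endometrium and 1 was not matched. Of 55 receptors, 13 had a large contrast in Endo, 4 in IVD Conc and 32 in neither, and 6 were listed only for endometrium. Members listed only for endometrium or not matched were not tested. The counts among the others are to be read against the 10.8% and 5.09% of all genes tested with a large contrast in Endo and in IVD Conc. Both members were on the Endo side in 6 pairs, which were VEGFA and KDR, DLL4 and NOTCH1, CXCL12 and CXCR4, ANGPT2 and TEK, ADM and CALCRL, and SLIT2 and ROBO1. VEGFA, the vascular growth factor, ranged 882 to 2015 CPM in Endo (median 1520.3), against 52.2 to 116 CPM in IVD Conc (median 75.5) (log2 fold change 4.23), and its receptor KDR ranged 127 to 285 CPM in Endo (median 162), against 0 to 59.3 CPM in IVD Conc (median 3.99) (log2 fold change 3.97).

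A ligand on the Endo side met a receptor on the IVD Conc side in 1 pair. FGF9, a fibroblast growth factor, ranged 2.57 to 44.6 CPM in Endo (median 6.53), against 0 to 0.53 CPM in IVD Conc (median 0.151) (log2 fold change 6.04), and FGFR3 ranged 3.59 to 6.85 CPM in Endo (median 5.36), against 107 to 196 CPM in IVD Conc (median 137) (log2 fold change -4.73). BMP7, a bone morphogenetic protein, was the 1 ligand with a large contrast in IVD Conc, ranging 0.796 to 10.7 CPM in Endo (median 3.43), against 33.6 to 297 CPM in IVD Conc (median 99.9) (log2 fold change -5.05), and its receptor BMPR2 was close, at medians of 80 CPM in Endo and 62.2 CPM in IVD Conc (log2 fold change 0.42). Both members were on neither side in 22 pairs, among them TGFA and EGFR, and KITLG and KIT.

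Genes listed only for endometrium could not be compared. They numbered 11186, of which 4355 had no count in any of the 13 Endo libraries, 193 had a median of at least 10 CPM and 37 of at least 50 CPM. The highest with a symbol were SPARCL1, a matrix protein (472 CPM), PDK4, a kinase of pyruvate dehydrogenase (420.5 CPM), the endothelial claudin CLDN5 (237 CPM), the adhesion molecule SELP (182 CPM) and CLEC3B (156 CPM). CLEC1A, AQP4, ERG, RGS5 and IFITM1 followed at medians of 129.6, 119.7, 102, 101 and 100.2 CPM. The conceptus table does not list these genes, and how it was filtered is not stated, so no IVD Conc level is stated for them.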

How the data were processed

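Poly(A) RNA-Seq libraries of 13 Endo and 8 IVD Conc mono-cultures were compared. The authors deposited raw counts per gene in 1 table per tissue. Per the submitters' processing notes and the study's methods, reads were trimmed with Trimmomatic, aligned to ARS-UCD1.2 with STAR (endometrium) or HISAT2 (conceptus) and counted with featureCounts. The sources used here name no tool versions, no strand setting for counting and no filter for the conceptus table. Overlapping and antisense genes are therefore uncertain, as are close copies.

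Counts of the 16084 genes in both tables were joined by gene identifier. Genes were filtered with filterByExpr (minimum count 10, total 15) and scaled by TMM, leaving 15137, and 947 were not tested. The tissues were compared with edgeR 4.0.16 (quasi-likelihood test, robust, no covariates, only these 21 libraries) in R 4.3.3, with Benjamini-Hochberg adjustment over all genes tested. Non-overlap was read from log2 CPM with a prior count of 2. The test was checked on counts simulated from Endo means and dispersions, with few changed genes. It recovered 57.4% of changes at an absolute log2 fold change of 1, 98.5% at 3 and 100% at 5. Because 78.3% of genes differed in the real data, that check cannot show how the test behaves at such a share. Alternatives were DESeq2 1.42.0, limma 3.58.1 (voom), other scalings and limits, percentile ranks, no filter, blocks, co-culture libraries and leaving out each library.

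The genes named were the 15 largest contrasts per direction with a symbol and at least 50 CPM, the markers COL3A1, DCN and CGA, examples from the lists and pairs (the largest contrasts, and members high in both tissues or going against the list), and the 10 highest genes listed only for endometrium. List members outside that count of examples, and GATA3, DLX4, PTGS2, AKR1B1, CYP11A1, PTGFR, SPP1, SLC2A5, STC1, IFNAR1, TDGF1 and IFN-tau-c1, were named after their values were seen. The labels give 8 IVD Conc libraries, 1 more than the study's methods, and a higher minimum RNA integrity for conceptus tissue, and were followed. Values of 2 list members are not reported here. The members and lists were chosen with earlier results of these data known. Each library carried its own heifer number in the labels, so p-values measure the spread between animals or pregnancies.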

Additional observations from a re-analysis of the deposited data

Results flagged for a closer look

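In the 8 IVD Conc libraries, the lowest and highest values of 30 named genes and 27 list sums were compared with the rest by Dixon's ratio, which by chance picks out about 1 in 20 groups. COL3A1 was highest in IVD Conc replicate 4, at 0.653 CPM against at most 0.0663 CPM in the other 7 sections. PENK was also highest in replicate 4, at 0.764 CPM against at most 0.111 CPM. IFNT3 was lowest in replicate 1, at 10.8 CPM against 301 to 3369 CPM. The summed level of the endometrial stroma list was lowest in replicate 1, at 376 CPM against 1374 to 2939 CPM. In these sections that sum was carried mainly by PDPN, which was 187 CPM in replicate 1. Replicate 4 also held the highest VIM, TEK and FLI1, and replicate 1 the lowest GATA3 and PTGS2. What sets these sections apart was not tested.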

How the results depend on the processing

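Of the 2398 large contrasts, 1 changed sign under the alternatives, in the co-culture libraries, while differences without a large contrast, such as those of TAGLN and TDGF1, changed sign under several. Large contrasts higher in Endo numbered 1070 by percentile ranks and 697 at a limit of 32-fold, against 1628. Those higher in IVD Conc numbered 344 at 32-fold and 1352 at 4-fold, against 770. With the other tissue held under 0.3 CPM, restricted genes numbered 286 in Endo and 111 in IVD Conc, and with at least 50 CPM in the own tissue they numbered 124 and 78, against 523 and 222. Of the 2398 large contrasts, DESeq2 kept 2382, limma-voom 2368 and percentile ranks 1498. A gene at a high percentile in both tissues cannot pass the limit of 30 percentile points. Leaving out each library in turn gave 1609 to 1755 large contrasts in Endo and 766 to 862 in IVD Conc, 517 to 559 and 217 to 247 restricted genes, and 5616 to 5807 and 5955 to 6189 differing genes. IVD Conc replicates 1 and 4 moved these counts most.

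Replicate numbers did not pair the samples: deviations from the group means correlated at a median of -0.008 between same-numbered libraries, above 0.1 in 0 of 8 pairs. With the replicate block, large contrasts numbered 1702 in Endo and 775 in IVD Conc, and 2361 of the 2398 were kept. Libraries of both tissues with the same uterus number in their names correlated at a median of -0.009, above 0.1 in 0 of 8 pairs. With the uterus number as a block, large contrasts numbered 1820 in Endo and 1064 in IVD Conc. That fit held only the 5 Endo and 8 IVD Conc libraries whose uterus numbers occurred in both tissues. Its counts therefore differ from the main ones in the libraries used as well as in the block. In the co-culture libraries 2034 of 2368 were kept, and MRAP2 had the opposite sign there (0.58, adjusted p = 0.586, against -4.43 by edgeR). The median log2 fold change over all genes moved by 0.13 when libraries were scaled by their totals alone, by 0.10 under upper-quartile scaling, by 0.04 under RLE scaling and by -0.09 without the filter. Fold changes under library totals are to be read against that shift. Counts limit the levels near 0: the floor of 3 counts was 0.0562 CPM in Endo and 0.0394 CPM in IVD Conc as a mean over libraries. Bounds set from this floor cover counting error only. Aligner, extraction and tissue cannot be told apart in any of these settings.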

Other observations

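Abundant genes outside the lists, named after their values were seen, added to both sides. SFN, an epithelial 14-3-3 protein, ranged 1.87 to 28 CPM in Endo (median 6.23), against 436 to 1038 CPM in IVD Conc (median 776) (log2 fold change -6.65), and TGM1, a transglutaminase that crosslinks proteins in epidermis, ranged 3.23 to 18 CPM in Endo (median 7.26), against 108 to 1502 CPM in IVD Conc (median 1049.5) (log2 fold change -6.89). TFPI2, a Kunitz-type protease inhibitor, ranged 513 to 2613 CPM in Endo (median 1522), against 1.98 to 135 CPM in IVD Conc (median 23.2) (log2 fold change 5.52), and CTSD, a lysosomal protease, ranged 89.1 to 274 CPM in Endo (median 154), against 310.2 to 3254 CPM in IVD Conc (median 1733) (log2 fold change -3.34). CAV1, the coat protein of caveolae, ranged 240.1 to 879 CPM in Endo (median 433), against 0.0673 to 3.14 CPM in IVD Conc (median 1.21) (log2 fold change 8.49). The groups did not overlap for any of these 5 genes.

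Of the 947 genes in both tables that fell below the filter on low counts, 0 reached 10 CPM in any Endo library and 19 in at least 1 IVD Conc library. TP63, a factor of stratified epithelium, had no count in Endo and 0.0644 to 50.0 CPM in IVD Conc, and IRX4, a homeobox factor, had no count in Endo and 0.0902 to 51.3 CPM in IVD Conc. NPSR1, a neuropeptide receptor, was at 53.3 CPM in IVD Conc replicate 5 alone. These genes were seen after the filter was applied and were not tested.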
